A study of Mus musculus with 80 samples.

Results

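The 32 genes examined here encode subunits of the receptors for the 2 main fast transmitters of the brain, gamma-aminobutyric acid (GABA) and glutamate. Their levels were read in brain, heart, kidney, liver and lung of mice that lack the serum carboxylesterase Es-1, the product of Ces1c, and of wild-type mice. A member was taken where a probe set of the array's annotation names that 1 gene, and of several such probe sets the one with the highest mean over all 80 arrays was used. This found 31 of the 32 genes among 17097 genes measured. Grin1, which encodes the obligatory NMDA receptor subunit, was not found by this rule and is not analysed here.

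GABA-A receptors are chloride channels built of 5 subunits, as a rule with alpha and beta subunits joined by a gamma or a delta subunit, and they carry most fast inhibition in the brain. Gabbr1 encodes 1 subunit of the slower, G protein-coupled GABA-B receptor. Glutamate opens the AMPA, NMDA and kainate channels, which carry excitation, and acts more slowly through the metabotropic receptors. Subunit use differs by brain region, and the alpha 6 subunit, Gabra6, is the textbook marker of cerebellar granule cells. Seizures caused by nerve agents are known to draw on glutamate receptors and to be treated through GABA-A receptors, and the series title names nerve agent intoxication as its subject.

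The mice were untreated, on a C57BL/6 background of no stated substrain, and of no stated age. Each group held 4 arrays of 1 genotype (KO, the Es-1 knockout, or WT), sex and tissue, which made 20 groups and 16 arrays per tissue. The arrays (Affymetrix HT MG-430 PM) received total RNA from frozen tissue, and their number sets how precise each comparison can be. The arrays came from 23 animals, of which 16 gave brain, heart, kidney and liver, 9 of these also lung, and 7 lung only. Values are log2 expression as deposited, so 1 unit is a doubling of signal. Probe sets differ in how strongly they bind, so a level is set only against the median of its own array or the same probe set in other samples. The tissue markers of all 80 arrays were highest for the labelled tissue, including a heart, that of KO female 994, whose label gives lung in 1 field and heart in its title. In liver, the source of Ces1c, its level was 9.70 to 12.04 in KO and 12.11 to 12.63 in WT animals, with a log2 difference of -2.30 (SE 0.26, limma adjusted p = 0.0032). The highest KO value is that of KO male 952, beside the WT range, while the next was 10.17. Which part of the gene the knockout removes is not stated, and the members were read with and without that animal.

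Promoter sequence from RefSeq (build GRCm38.p6, the 250 bases before the annotated start) matched 22 of the 31 members, with 29 promoters. Of these, 4 are shown, read 5′ to 3′ on the gene's strand, with each match to a searched motif in capitals. Gabra6 (chr11:42321073-42321322, minus strand) and Gria4 (chr9:4796235-4796484, minus strand) moved with cerebellar markers among the brains. Gabbr1 (chr17:37045716-37045965, plus strand) was measured in every organ. Grm2 (chr9:106656110-106656359, minus strand) held both parts of RE1, the site of the repressor REST, which is known to silence neuronal genes outside neurons.
Gabra6: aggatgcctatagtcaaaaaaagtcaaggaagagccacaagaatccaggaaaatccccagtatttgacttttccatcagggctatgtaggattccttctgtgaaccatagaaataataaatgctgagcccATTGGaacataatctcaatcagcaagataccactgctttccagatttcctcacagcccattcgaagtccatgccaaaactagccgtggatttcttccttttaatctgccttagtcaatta
Gria4: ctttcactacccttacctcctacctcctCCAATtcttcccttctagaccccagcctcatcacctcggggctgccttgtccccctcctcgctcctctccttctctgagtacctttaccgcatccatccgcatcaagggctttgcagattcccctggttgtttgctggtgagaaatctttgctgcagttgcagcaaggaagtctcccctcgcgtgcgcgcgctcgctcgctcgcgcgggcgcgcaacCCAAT
Gabbr1: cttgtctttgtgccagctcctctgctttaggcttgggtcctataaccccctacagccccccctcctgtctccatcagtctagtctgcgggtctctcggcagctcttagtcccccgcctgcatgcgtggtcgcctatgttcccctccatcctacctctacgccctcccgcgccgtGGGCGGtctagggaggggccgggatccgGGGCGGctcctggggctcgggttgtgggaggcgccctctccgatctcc
Grm2: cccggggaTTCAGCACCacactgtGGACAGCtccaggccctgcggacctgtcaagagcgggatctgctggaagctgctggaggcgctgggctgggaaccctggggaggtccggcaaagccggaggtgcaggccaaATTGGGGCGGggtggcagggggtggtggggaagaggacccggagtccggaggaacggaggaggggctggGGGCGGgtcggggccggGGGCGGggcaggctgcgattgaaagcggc
The motifs searched on both strands were the left part of RE1, TTCAGCACC, the right part, GGACAGC, the GC box GGGCGG, the CCAAT box CCAAT, the TATA box TATAAA and the cyclic AMP response element TGACGTCA. The left part of RE1 was in 1 of the 29 member promoters (Grm2) and in 0.301% of the 32851 promoters of the table. The right part was in those of Gria2 and Grm2 and in 5.28% of the table. GC boxes were in 14 member promoters against 32.7% of the table, CCAAT boxes in 12 against 33.8%, TATA boxes in 3 against 12.4%, and the cyclic AMP element in 0 against 1.55%. In the Grm2 promoter the CCAAT box on the other strand and a GC box overlap by 1 base. The Gabra6 promoter shown is 40.8% G and C with 2 CpG pairs, against 58.8% and 16 pairs for Gria4, 66.0% and 16 for Gabbr1, and 71.2% and 16 for Grm2. The medians were 61.2% and 9 pairs over the member promoters and 52.4% and 6 over the table. Such matches describe the letters of these windows only.

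In the brain, 29 of the 31 members lay above the median of their own array in at least 12 of 16 arrays, the measure of presence used here, and 26 did so in all 16. Over all genes measured, 62.2% met that measure in brain. The GABA-A alpha subunits, which set a receptor's kinetics and its response to benzodiazepines, had brain means of 7.49 ± 0.47 for Gabra2, 9.12 ± 0.22 for Gabra3, 9.46 ± 0.24 for Gabra4 and 8.62 ± 0.28 for Gabra5 (SD, n = 16 brains, log2 levels). Gabra6 had a mean of 10.08 with an SD of 1.78, since it was at 3.64 in WT female 1265 and at 9.28 or more in the other 15 brains. The beta subunits, which help form the GABA site, were at 10.27 ± 0.19 for Gabrb1 and 10.52 ± 0.20 for Gabrb2. Of the gamma subunits, Gabrg1 was at 7.71 ± 0.29. Gabrg3 was at 3.21 ± 0.13 and above the array median in 0 of 16 brains, on both of its probe sets. Gabrd, the subunit of receptors outside synapses, was at 8.11 ± 0.20. Gabbr1 varied least, between 10.67 and 10.97 (mean 10.78 ± 0.08).

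The AMPA subunits, the main channels of fast excitation, had brain means of 10.61 ± 0.14 for Gria1, 10.98 ± 0.16 for Gria2, 9.47 ± 0.25 for Gria3 and 8.94 ± 0.36 for Gria4 (SD, n = 16). Of the NMDA subunits, Grin2a was at 5.10 ± 0.57, Grin2b at 7.74 ± 0.34, Grin2c at 6.90 ± 0.42 and Grin3a at 6.70 ± 0.29. Grin2d, a subunit of the developing brain and of the brainstem, was at 3.56 ± 0.18 and above the array median in 0 of 16 brains. The kainate subunits were at 4.57 ± 0.45 for Grik1, 5.39 ± 0.37 for Grik2, 6.45 ± 0.31 for Grik3, 5.12 ± 0.17 for Grik4 and 7.75 ± 0.27 for Grik5. The metabotropic receptors were at 6.02 ± 0.36 for Grm2, 9.72 ± 0.21 for Grm3, 8.94 ± 0.43 for Grm4, 9.64 ± 0.33 for Grm5, 8.29 ± 0.23 for Grm7 and 5.47 ± 0.30 for Grm8. A low value of a probe set does not show that the gene is silent. The second probe sets of Gabrd (brain mean 3.65), Grm7 (3.19) and Grik3 (3.13) were near the foot of the scale in brains in which the first were at 8.11, 8.29 and 6.45.

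Set against each other organ in 1 fit of all 80 arrays, 29 of 31 members were higher in brain than in each of heart, kidney and liver, and 31 were higher than in lung (limma, Benjamini-Hochberg adjusted p under 0.05 over all genes). Of all genes, 32.3%, 31.9%, 35.7% and 35.6% were higher in brain than in heart, kidney, liver and lung. The median difference of the members was 4.66, 4.69, 4.63 and 4.49 log2 units in that order, against -0.12, -0.08, -0.14 and 0.00 over all genes. Gria2, the AMPA subunit that keeps calcium out of the channel, ran from 10.64 to 11.32 in the brains and was above the array median in 0 of the 64 other arrays. Like Gria2, most members lay below the array median outside the brain, so most of these differences are taken against dim probe sets, and their sizes are not ranked.

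**Figure D1:**
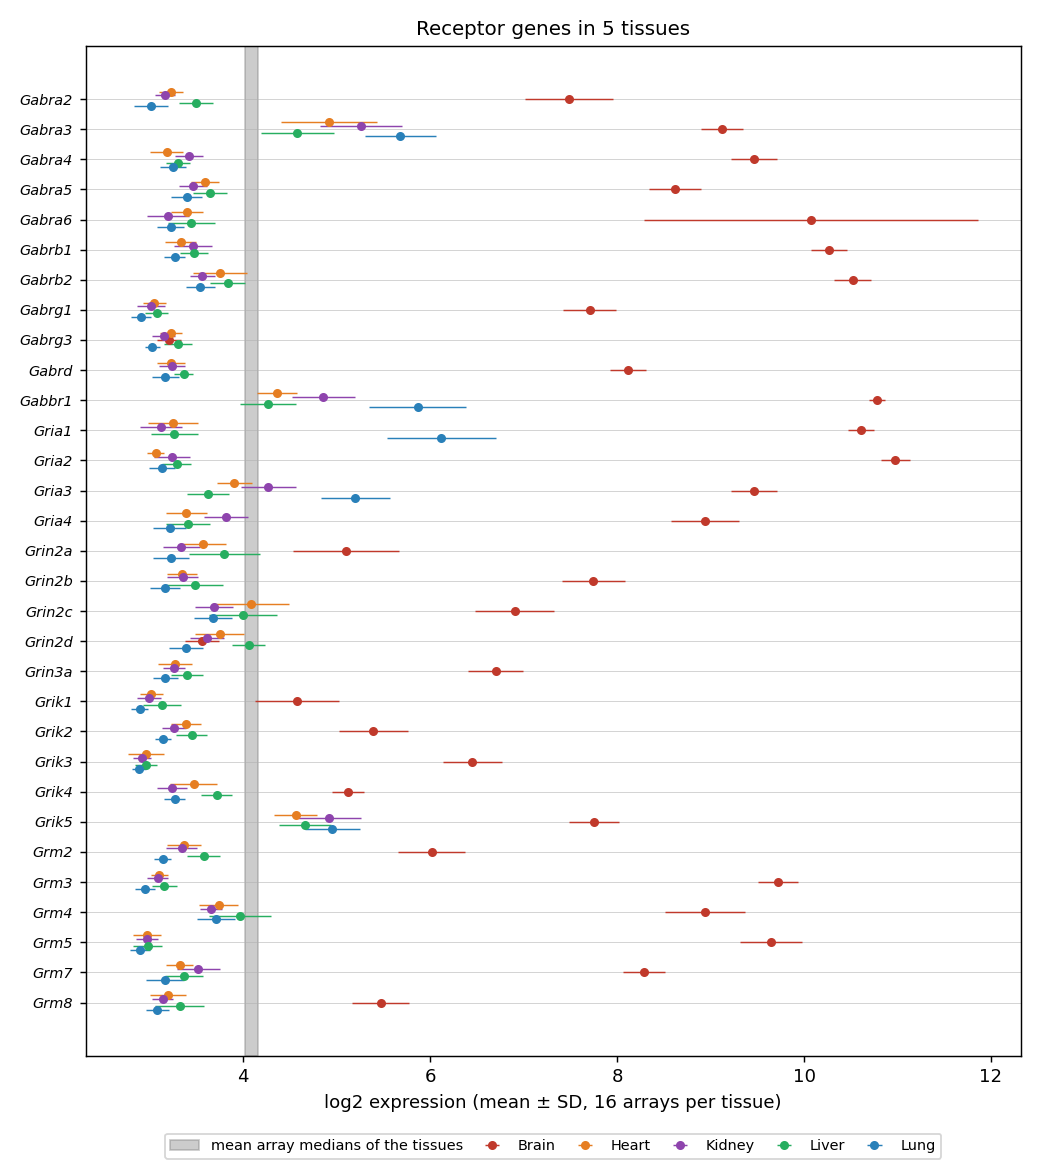
Mean log2 expression (x axis) of the 31 receptor genes (y axis) in 5 tissues, with bars of 1 SD over 16 arrays per tissue, and a grey band over the mean array medians of the tissues. All but Gabrg3 and Grin2d have brain means right of the band, and the long bar is that of Gabra6 (SD 1.78).

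The exceptions were the NMDA subunit Grin2d and the gamma subunit Gabrg3. Grin2d was lower in brain than in heart by -0.18 (SE 0.07, adjusted p = 0.0143), a call lost without WT male heart 903 (-0.13, adjusted p = 0.054) and in KO arrays alone (-0.12, adjusted p = 0.261). Grin2d was lower than in liver by -0.50 (SE 0.07, adjusted p = 2.23e-09). Gabrg3 was lower than in liver by -0.10 (SE 0.05, adjusted p = 0.0493), a call lost when any 1 of 19 arrays was left out, and with the mean of its probe sets the difference turned to 0.09. In all, 1 member was lower in brain than in heart, 2 than in liver, and 0 than in kidney or lung (limma, also 0 at an unadjusted p under 0.05). Of all genes, 47.4%, 50.1%, 42.5% and 38.3% were lower in brain than in heart, liver, kidney and lung. Both genes lie below the array median in every brain. Gabrg3 does so in every other array too, while Grin2d was above it in 9 of 16 livers and 2 of 16 hearts. In 26 of the 31 members the lowest brain lay above the highest of the 64 other arrays, the others being Gabra6, Gabrg3, Grin2a, Grin2d and Grik1. The share of all genes with such a gap is not given here, so this count has no background beside it.

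Outside the brain, 3 members each in heart and liver, 4 in kidney and 5 in lung were above the array median in at least 12 of 16 arrays, where 59.7% to 62.1% of all genes were. These were Gabra3, Gabbr1 and the kainate subunit Grik5 in all 4 organs, Gria3 in kidney and lung, and Gria1 in lung. The lung stood above the mean of the other 3 organs for all 5 of them, and for no other member. The measure of presence and this comparison draw on the same lung values, so they are not separate evidence. Gria1 met the measure in lung alone. Of all genes, 36.6% were higher in lung on this comparison. In a bulk sample, more cells of a kind that makes a transcript and more transcript per cell cannot be told apart.

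Gria1, an AMPA subunit, ran from 5.13 to 7.33 in the 16 lungs with a median of 6.08. In heart it ran from 2.88 to 3.92 (median 3.25), in kidney from 2.69 to 3.63 (median 3.12) and in liver from 2.95 to 3.69 (median 3.21). No lung overlapped any array of those 3 organs, and lung exceeded their mean by 2.91 log2 units (SE 0.10, adjusted p = 6.98e-39). Its second probe set gave means of 5.10 in lung and 3.07 to 3.22 in the others. Gria3, another AMPA subunit, was at 4.65 to 5.80 in lung (median 5.21), 3.53 to 4.82 in kidney (median 4.32), 3.59 to 4.32 in heart (median 3.91) and 3.19 to 3.95 in liver (median 3.63). Lung overlapped kidney but neither heart nor liver, and stood 1.27 above the mean of the other 3 (SE 0.07, adjusted p = 3.21e-26). Its second probe set was likewise highest in lung among the 4 organs, at 5.33.

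Gabbr1, the GABA-B subunit that binds the transmitter, was at 5.19 to 6.76 in lung (median 5.84). It ran from 4.46 to 5.60 in kidney (median 4.74), from 3.91 to 4.66 in heart (median 4.40) and from 3.81 to 4.94 in liver (median 4.29). The lung exceeded the mean of the others by 1.37 (SE 0.09, adjusted p = 4.83e-22), with an overlap of lung and kidney values. Gabra3 was at 5.15 to 6.61 in lung (median 5.68), 4.53 to 5.88 in kidney (median 5.34), 4.10 to 5.98 in heart (median 4.88) and 3.86 to 5.20 in liver (median 4.56). It stood 0.76 higher in lung than in the mean of the others (SE 0.09, adjusted p = 1.56e-11), and the 4 organs overlap. Its second probe set had female and male means of 3.70 and 3.63 in lung and 3.74 and 3.40 in heart. In kidney they were 3.63 and 3.57, and in liver 3.89 and 3.86. All lie below the mean array medians of these organs, 4.02 to 4.15, so these Gabra3 readings rest on 1 probe set. Grik5 was nearly level, with medians of 4.57 in heart, 4.60 in liver, 4.95 in kidney and 4.98 in lung. Its lung difference of 0.24 (SE 0.08, adjusted p = 0.00575) turned to -0.07 when the 80 arrays were quantile normalised again.

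**Figure D2:**
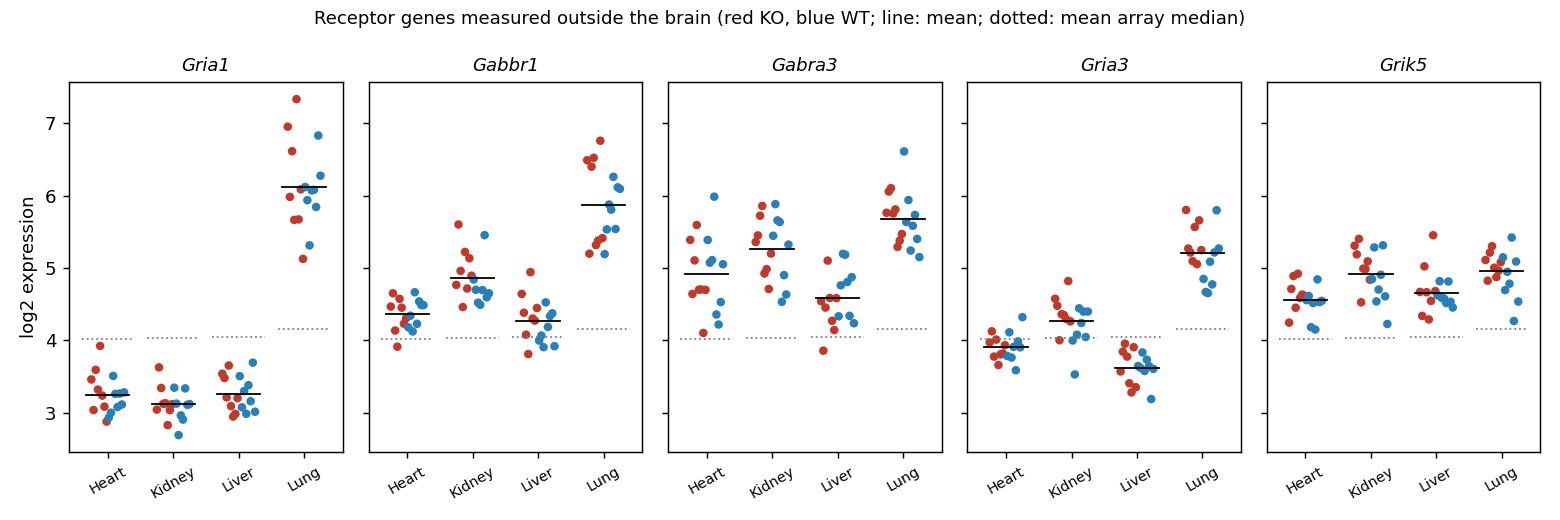
Log2 expression (y axis) of the 5 receptor genes measured outside the brain in each array of heart, kidney, liver and lung (x axis), KO in red and WT in blue, with the mean of 16 arrays as a line and the mean array median as a dotted line. The lung values of Gria1, 5.13 to 7.33, lie apart from those of the other 3 organs.

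Markers of other tissues varied among these arrays. The 6 measured heart muscle markers had means of 6.88 to 10.78 in the lungs against 12.78 to 13.12 in the hearts, in which Gria1 itself had a mean of 3.25. The 12 genes of neurons in general had means of 3.80 to 4.39 in lung and 10.83 to 10.99 in brain, with the highest lung value in KO female 781, whose lung Gria1 was 6.95 and Gabbr1 6.49. The highest lung values of Gria1 (7.33) and Gabbr1 (6.76) were those of KO male 952 and KO male 1870. In kidney that list had a median of 3.50 and reached 4.78 in KO female 982, whose kidney had the highest Gabbr1 of that organ, 5.60. The 7 measured markers of peripheral neurons and neuroendocrine cells had a mean that reached 5.52 in the kidney of WT female 1265 against a median of 3.48. In that kidney Gabbr1 was 4.49, near the lowest of the organ, 4.46. The part of such cells in the levels was not tested.

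For the other organs, 1 member was higher in heart than in the mean of the other 3 (35.2% of all genes), 6 in kidney (30.3%) and 18 in liver (41.4%). In WT arrays alone these were 0 in heart and 1 in kidney, and with quantile normalisation renewed there were 8 in liver. In heart this was the NMDA subunit Grin2c, by 0.29 (SE 0.09, adjusted p = 0.0038), with 16 of the 64 arrays outside the brain above their median. In kidney the differences were 0.11 to 0.48, led by Gria4 (0.48, SE 0.07, adjusted p = 2.8e-08) at a kidney mean of 3.82, below the median. In liver they were 0.11 to 0.48, led by Grin2d (0.48, SE 0.06, adjusted p = 2.02e-11). None of the 18 met the measure of presence in liver. With a least difference of 1 log2 unit, 0 members were called in heart, kidney or liver and 3 in lung, namely Gria1, Gria3 and Gabbr1. The shares of all genes given above are those of the main settings. Those with the least difference, in WT arrays alone or with renewed quantiles are not given here.

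Gabra3 lies on the X chromosome (chrX:72432676-72656919, GRCm38.p6) and differed by sex in kidney, a comparison added after its values had been seen. In kidney it was 5.36, 5.45, 5.72 and 5.86 in the KO females and 5.45, 5.88, 5.66 and 5.63 in the WT females. It was 4.92, 4.98, 4.71 and 5.20 in the KO males and 4.53, 4.90, 4.63 and 5.32 in the WT males. All 8 females lay above all 8 males. The male minus female difference was -0.72 log2 units (SE 0.11, limma adjusted p = 0.000224), with -0.64 in KO animals alone and -0.81 in WT animals alone. Its second probe set, above the array median in 1 of 16 kidneys, gave -0.06 (SE 0.09, limma adjusted p = 0.725), and the mean of the 2 probe sets gave -0.39 (adjusted p = 0.00358), so the sex difference was read on 1 probe set. In heart the difference was -0.74 (SE 0.17, adjusted p = 0.0885), with overlap between the sexes. In lung it was -0.41 (SE 0.16, adjusted p = 0.96), in liver -0.20 (SE 0.18, adjusted p = 0.608), and in brain -0.14 (SE 0.11, adjusted p = 0.73). Whether the sex difference differs between organs was not tested. Gabra3 was the only member called in kidney, where 21.6% of all genes were called. With each array centred on its median, 8 members and 6222 of all 17097 genes were called there. No member was called in heart, liver or lung (limma, with 0.269%, 4.96% and 0.0526% of all genes called), and at an unadjusted p under 0.05 there were 1, 2 and 3. These unadjusted counts have no share of all genes beside them.

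For knockout against wild type, no member was called in any tissue with limma, at an adjusted p under 0.05 over all genes. At an unadjusted p under 0.05 there were 2 members in brain and 2 in heart, 1 each in kidney and liver, and 4 in lung. Among all 17097 genes, that unadjusted limit was met by 821 for lung, 1021 for brain, 777 for heart, 573 for liver and 575 for kidney. The share of all genes called was 0% in brain and kidney and 0.00585% each in heart, liver and lung, so a count of 0 members is at the background. In brain, 20 members had a higher and 11 a lower KO mean, where 9607 of all genes had a higher and 7490 a lower one. The median difference was 0.05 for the members against 0.01 over all genes. Of the 31 brain differences, 24 had 95% intervals within 0.5 log2 units of 0 on both sides, and 30 within 1. The exception at 1 unit was Gabra6, from -0.92 to 2.42. In heart 30, and in kidney, liver and lung 28 each, lay within 0.5. Most members were above the array median in no array of these organs, namely 23, 23, 21 and 25 in that order. Narrow intervals at such levels tell little about change, and no such share over all genes was computed.

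**Figure D3:**
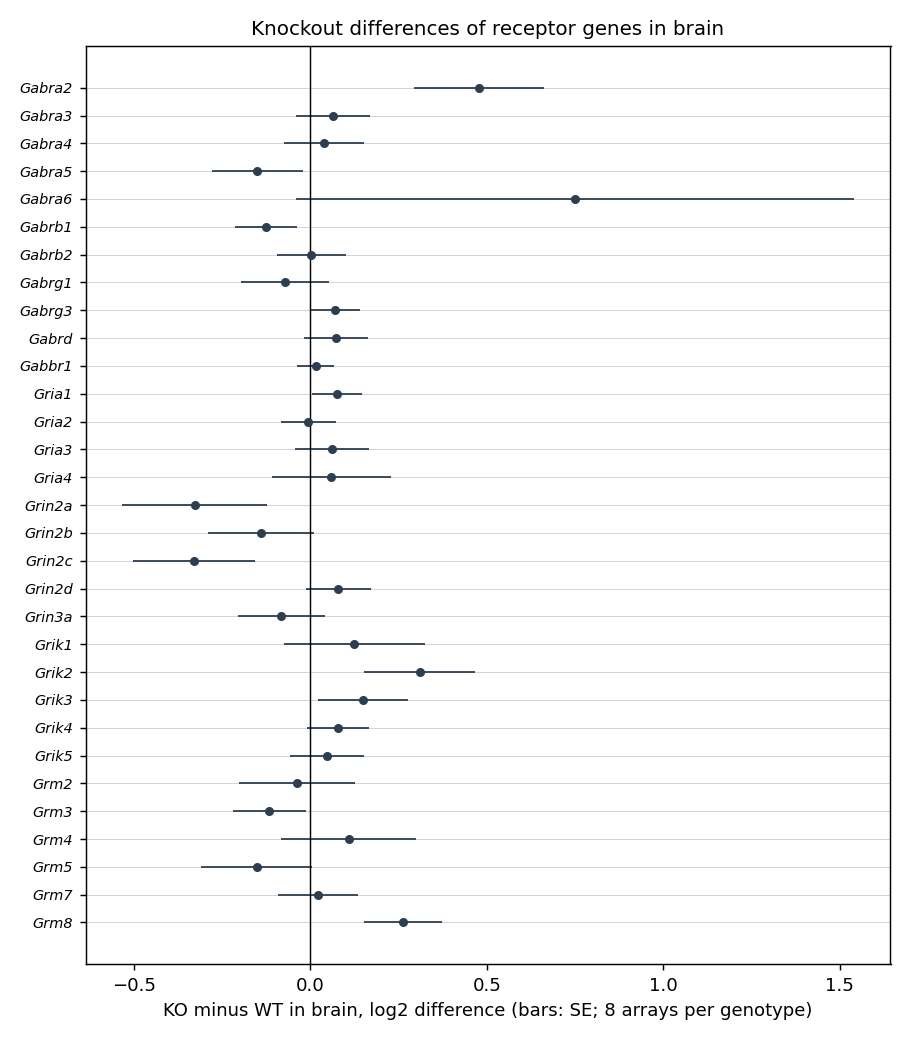
Log2 difference of KO minus WT in brain (x axis) for the 31 receptor genes (y axis), with bars of 1 SE over 8 arrays per genotype. Gabra2 lies at 0.48, Gabra6 has the longest bar (0.75, SE 0.79), and no gene was called.

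By class, the 5 kainate subunits all had higher KO means in brain, by 0.05 to 0.31, and 4 of the 5 NMDA subunits had lower ones, the range being -0.33 to 0.08. Other probe sets of Grik1 (-0.06), Grik3 (-0.003) and Grin2b (0.08 and 0.03) went the other way, at brain means of 3.13 to 4.07. Those of Grik2 (0.29) and Grin3a (-0.16 and -0.02) went the same way. The 4 AMPA subunits lay between -0.01 and 0.08. The 6 metabotropic receptors lay between -0.15 and 0.26, and Gabbr1 was at 0.01. None of these classes held a called member.

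The smallest p in brain was that of Gabra2, an alpha subunit of synapses of the forebrain. Its levels were 7.04, 7.61, 8.43 and 7.40 in the 4 KO females, 7.41, 7.38, 8.35 and 8.19 in the 4 KO males, 7.18, 7.47, 7.34 and 7.49 in the 4 WT females, and 7.58, 7.01, 6.82 and 7.09 in the 4 WT males. KO brains 985, 964 and 1259 stood above the other 13, which ran from 6.82 to 7.61, and the genotypes overlap. The difference was 0.48 (SE 0.18, limma adjusted p = 0.799). Its second probe set was at 6.60, 6.59 and 6.71 in those 3 brains and between 4.90 and 5.89 in the other 13, with a difference of 0.69 (SE 0.21, limma adjusted p = 0.548). Its neighbours on chromosome 5 did not set those brains apart. Gabrg1 was at 7.42, 7.39 and 7.61 there (all brains 7.31 to 8.15), Gabra4 at 9.48, 9.50 and 9.44 (8.84 to 9.92), and Gabrb1 at 10.21, 9.96 and 10.45 (9.96 to 10.64). Why Gabra2 stood higher in those 3 brains was not tested.

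Grm8, a presynaptic metabotropic receptor, was next. Its levels were 5.77, 5.88, 5.83 and 5.79 in the 4 KO females, 5.50, 5.64, 5.41 and 4.98 in the 4 KO males, 5.19, 4.92, 5.26 and 5.82 in the 4 WT females, and 5.38, 5.45, 5.27 and 5.43 in the 4 WT males. Among females WT 1265 lies within the KO values and the other 3 WT brains below them, and among males the genotypes overlap. The difference was 0.26 (SE 0.11, adjusted p = 0.802), and the KO effect in males less the one in females was -0.52 (SE 0.22, adjusted p = 0.998). The third was the kainate subunit Grik2. It was at 5.24, 5.55, 5.78 and 5.76 in the 4 KO females, 5.83, 5.51, 5.38 and 5.34 in the 4 KO males, 5.14, 5.20, 4.89 and 5.37 in the 4 WT females, and 5.51, 4.43, 5.71 and 5.66 in the 4 WT males. The genotypes overlap, WT male 902 stands lowest, and the difference was 0.31 (SE 0.16, adjusted p = 0.83). Its second probe set gave 0.29 (SE 0.31). Probe sets of 1 member disagreed elsewhere too, since the dimmest of the 3 for Gria2 gave -0.52 (SE 0.14, adjusted p = 0.459) while the other 2 gave -0.01 and -0.03.

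In the other tissues the members at an unadjusted p under 0.05 were Grin3a (0.17) and Grik2 (-0.19) in heart, Gabra4 (0.17) in kidney, Grin2c (-0.34) in liver, and Gria3 (0.32), Gria4 (-0.20), Grin2c (-0.18) and Grik2 (-0.11) in lung. Their adjusted p values were 0.977 to 1. Of these only Gria3 in lung was measured above the array median there. Its levels were 5.80, 5.27, 5.21 and 5.09 in KO females, 5.57, 5.05, 5.66 and 5.25 in KO males, 4.85, 4.67, 4.65 and 5.09 in WT females, and 4.77, 5.21, 5.80 and 5.27 in WT males. The WT males reached as high as the KO animals (difference 0.32, SE 0.14, limma adjusted p = 0.977). Of the other members measured in these organs, Gabbr1 differed by -0.04 in heart, 0.23 in kidney, 0.13 in lung and 0.20 in liver. Grik5 differed by 0.14, 0.24, 0.19 and 0.09 in that order, Gabra3 by -0.10, 0.02, 0.04 and -0.27, Gria1 by 0.12 in lung, and Gria3 by 0.25 in kidney (SE 0.12, limma adjusted p = 1).

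Between the sexes in brain no member was called, against 0.0994% of all genes. An unadjusted p under 0.05 was found for 4 members and for 1642 of all 17097 genes. Gria3 was 0.27 higher in males (SE 0.11, limma adjusted p = 0.431), and Grin3a (-0.29), Grik3 (-0.30) and Grik5 (-0.29) were lower, with adjusted p of 0.37 to 0.471. For the difference of the KO effect between the sexes no member and 0% of all genes were called. Under an unadjusted p of 0.05 were 798 of all 17097 genes and 2 members. Besides Grm8 this was Grin2a, the NMDA subunit that prevails in the adult forebrain. It was at 4.24, 5.58, 5.90 and 5.76 in the 4 KO females, 4.85, 4.64, 4.49 and 4.02 in the 4 KO males, 5.08, 4.65, 5.70 and 5.01 in the 4 WT females, and 5.35, 5.52, 5.37 and 5.42 in the 4 WT males. The KO females other than 781 lie high and the KO males low, and the KO effect in males less the one in females was -1.18 (SE 0.41, adjusted p = 0.998).

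The other genes of both systems gave the same count. Of 5 measured among 9 other GABA-A subunits, 2 of 6 other GABA-B, NMDA, delta and metabotropic subunits, 7 of 9 genes of GABA synthesis and transport, 9 of 13 of glutamate synthesis and transport, and 23 of 29 of receptor anchoring and auxiliary proteins, 0 were called for KO against WT in any tissue. In brain 0 of these 46 had an unadjusted p under 0.05, against 1021 of all 17097 genes. The smallest p were those of Slc17a7, the vesicular glutamate transporter of cortical neurons (0.38, SE 0.18), the AMPA receptor auxiliary protein Cnih2 (0.26, SE 0.13), Glud1, glutamate dehydrogenase (-0.12, SE 0.06), and the scaffold Homer1 (0.18, SE 0.09), each with a limma adjusted p of 0.83. Of the other GABA-A subunits, Gabrp, the pi subunit found mainly outside the brain, was at a mean of 9.18 in lung against 3.34 in brain.

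The median SD among the 16 brains was 0.29 over the 29 members measured in brain, against 0.18 over 10639 genes, as a description of these brains. Gabbr1 (0.08), Gria1 (0.14), Gria2 (0.16) and Grik4 (0.17) lay below the latter value. The largest SDs were those of Gabra6 (1.78), Grin2a (0.57) and Gabra2 (0.47). Gabra6 was at 10.46, 10.56, 10.70 and 10.45 in the 4 KO females, 10.89, 10.20, 10.33 and 10.03 in the 4 KO males, 10.68, 11.28, 10.56 and 3.64 in the 4 WT females, and 9.28, 10.05, 11.24 and 10.88 in the 4 WT males. WT female 1265 lies within the range of Gabra6 in the other 4 tissues (2.80 to 3.91), while the other 15 brains ran from 9.28 to 11.28. Its second probe set was at 3.24 in that brain and at 7.27 to 9.33 in the others.

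Markers of brain regions differed between these brains. The mean of 9 measured markers of cerebellar granule cells was 6.01 in WT female 1265, against a median of 8.18 and a highest value of 8.95, and the mean of 5 Purkinje cell markers was 6.78 there against a median of 9.77. The mean of 8 striatal markers was 6.91 in WT male 902 and 6.74 in WT male 903, against a median of 8.21. The mean of 12 genes of neurons in general ran from 10.83 to 10.99. The SDs among KO and among WT brains were 0.17 and 0.95 for granule cells, 0.23 and 1.20 for Purkinje cells, and 0.21 and 0.76 for striatum. The labels state only that brain was collected, and which parts of each brain were taken is not given in the sources used here.

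**Figure D4:**
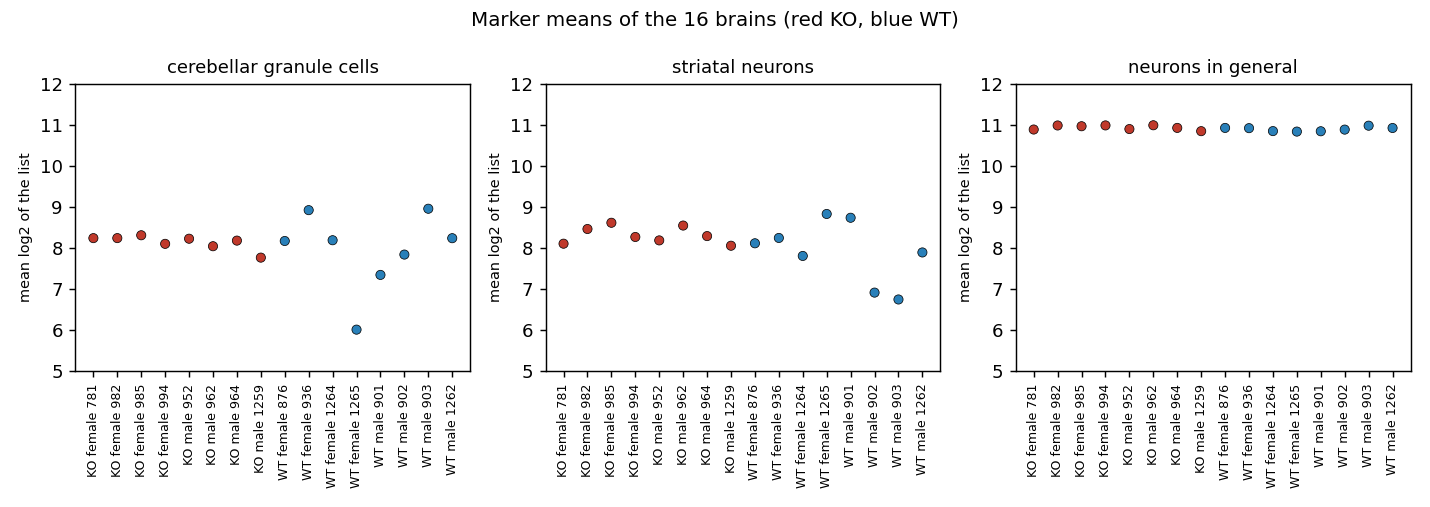
Mean log2 level (y axis) of marker lists for cerebellar granule cells, striatal neurons and neurons in general in each of 16 brains (x axis), KO in red and WT in blue. WT female 1265 is at 6.01 for granule cells, WT males 902 and 903 are at 6.91 and 6.74 for striatum, and the general list stays between 10.83 and 10.99.

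Over the 16 brains, 7 members were correlated with the granule cell list at an adjusted p under 0.05 by a two-sided permutation test, adjusted over 93 relations of 31 members and 3 region lists. Only members were tested against these lists, so the counts called for each list have no share of all genes beside them. Gabra6 had r = 0.94 (Spearman 0.89, p = 1e-05, adjusted p = 0.00031), Grm4 0.90 (Spearman 0.87, p = 1e-05, adjusted p = 0.00031) and Gria4 0.86 (Spearman 0.94, p = 1e-05, adjusted p = 0.00031), where 1e-05 is the smallest p that 100000 permutations can give. Grin2c, the NMDA subunit known from adult granule cells, had r = 0.76 (Spearman 0.60, permutation p = 0.00161, adjusted p = 0.0214). Gabra3 (r = -0.79, Spearman -0.25, adjusted p = 0.0245), Gria2 (r = -0.77, Spearman -0.74, adjusted p = 0.0138) and Gabra4 (r = -0.72, Spearman -0.53, adjusted p = 0.0412) ran the other way by permutation. Without the 2 brains farthest from the median, Gabra6 (r = 0.91), Gria4 (0.88) and Grm4 (0.82) kept an adjusted p under 0.05. For the other 4 the adjusted permutation p was 0.143 to 0.229 over those 14 brains, with r of -0.66 for Gabra3, 0.65 for Grin2c, -0.57 for Gria2 and -0.54 for Gabra4. Among the 12 brains with animal numbers under 1000 the same 3 held, with r of 0.95, 0.92 and 0.89. The 4 brains with higher numbers are too few for a value.

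**Figure D5:**
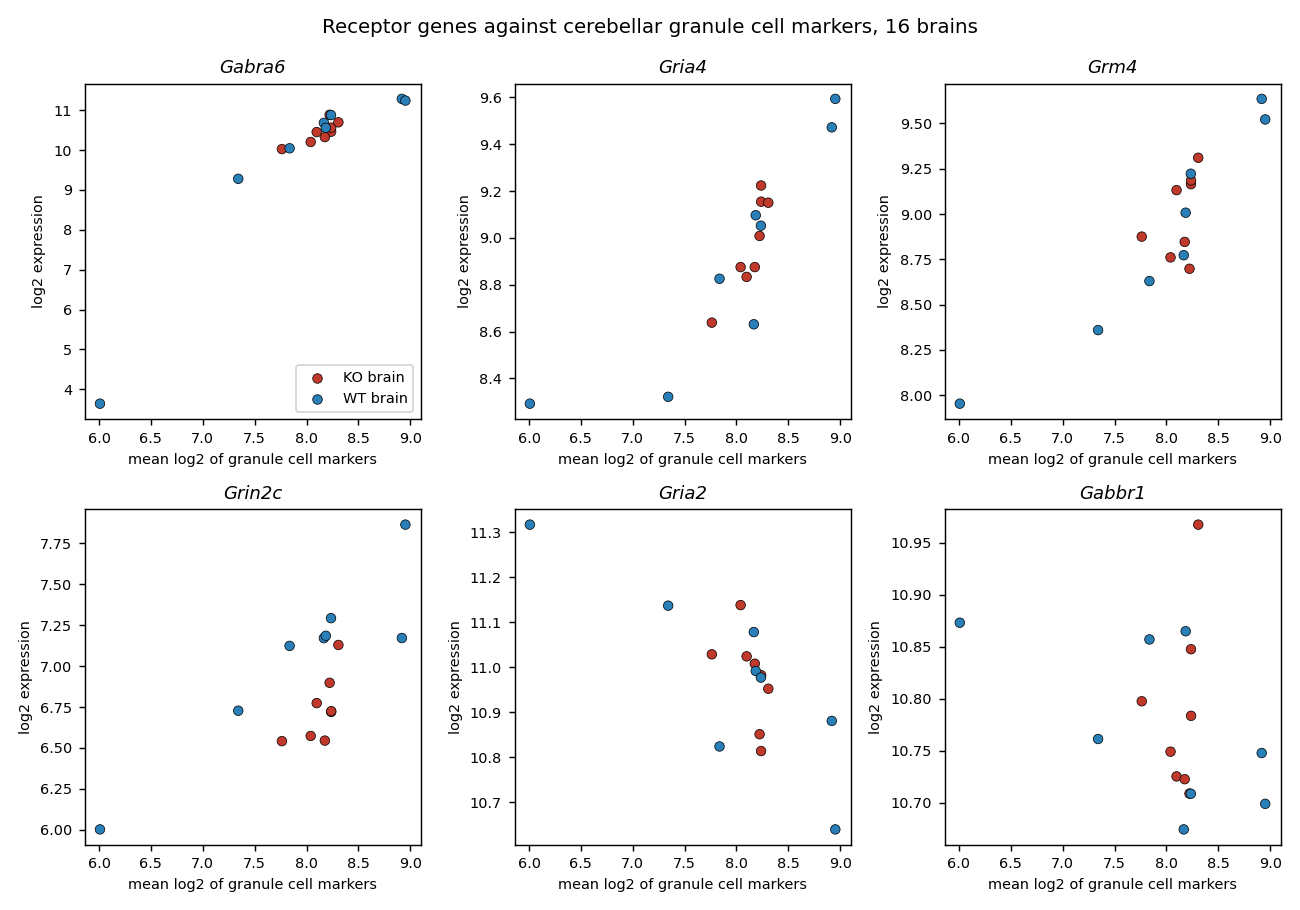
Log2 expression (y axes) of 6 receptor genes against the mean log2 level of the cerebellar granule cell markers (x axes) in 16 brains, KO in red and WT in blue. Gabra6, Gria4 and Grm4 climb with the marker mean (r = 0.94, 0.86 and 0.90), Gria2 falls (r = -0.77), and Gabbr1 stays between 10.67 and 10.97.

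With the striatal list, Gria2 (r = 0.76, Spearman 0.61, adjusted p = 0.0138) and Gabra4 (0.71, Spearman 0.69, adjusted p = 0.0245) rose and Grin2c fell (-0.72, Spearman -0.57, adjusted p = 0.0214) by permutation over 16 brains. With the list of cortical and hippocampal excitatory neurons, Gabra3 (r = 0.71, Spearman 0.64, adjusted p = 0.0245), Grm3 (0.65, Spearman 0.78, adjusted p = 0.0412) and Grm8 (0.65, Spearman 0.65, adjusted p = 0.0412) rose. None of these 6 relations kept an adjusted p under 0.05 without the 2 farthest brains, with r of 0.57, 0.68 and -0.59 for the striatal list and 0.45, 0.66 and 0.52 for the cortical one. These adjusted p are those of r. By permutation of Spearman values, only Gabra4 (adjusted p = 0.0376) and Grm3 (0.0112) of the 6 were under 0.05. Grik3 (Spearman 0.82, adjusted p = 0.00581) and Gabra2 (0.71, adjusted p = 0.0359) then rose with the striatal list, with r of 0.60 and 0.55. Gabrb1 fell with the granule cell list (Spearman -0.70, adjusted p = 0.0359, r = -0.40). All genes of a brain share its array and its dissection, and the part of dissection in these levels was not tested.

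Without WT brains 1265, 902 and 903, a choice made after seeing the data, the KO minus WT difference of Gabra6 was -0.01 (SE 0.22) in place of 0.75 (SE 0.79). That of Gabra2 was 0.39 (SE 0.22), that of Grik2 0.22 (SE 0.11), that of Grm8 0.34 (SE 0.10) and that of Grin2c -0.35 (SE 0.11), with limma adjusted p of 0.891, 0.891, 0.721 and 0.721. No member and no gene was called in that fit.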

How the data were processed

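The values are log2 expression per probe set, deposited by the authors in 1 table of 80 arrays. Affymetrix Expression Console, RMA and Partek are named in the submitters' processing notes, with no version, and whether RMA ran over all tissues together is not given in the sources used here. Per the labels' protocols, total RNA (Qiagen RNeasy) was amplified from oligo(dT) primers, which favours the 3' end of a transcript. Of 45141 probe sets, 104 controls were left out, 28898 name 1 gene (551 name several, 15588 none), and 28689 of these matched the RefSeq gene table by gene ID.

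Per tissue, limma 3.58.1 (R 4.3.3, lmFit and eBayes, no trend) was fitted to the 4 group means of genotype and sex over 16 arrays, and differences were averaged over the other factor. Tissues were compared in 1 fit of 80 arrays with 20 group means. P-values were adjusted by Benjamini-Hochberg over all 17097 genes, and an adjusted p under 0.05 was called. Correlations used numpy 2.4.6 and scipy 1.17.1. The code was tested on simulated data. Members and lists were chosen with earlier results of these data known. Array values are given for the 3 members with the smallest p for KO minus WT in brain, the 3 largest SDs among brains and those measured in an organ. The sex comparison in the 4 organs and the fit without 3 WT brains were added after values had been seen.

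Arrays of 1 animal share its number. Over 132 same-animal pairs from different tissues the median correlation of deviations from the group means was 0.096, against -0.0032 for 2428 pairs of other animals, and the estimated block correlation was 0.0736. Alternatives covered probe set choice, normalisation, centring, filters, prior, weights, blocks and each array left out.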

Additional observations from a re-analysis of the deposited data

Results flagged for a closer look

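Of 184 groups of 4 arrays examined, 15 (8.15%) held 1 array far from the other 3 by Dixon's ratio at its 95% critical value. For independent normal values the rate is about 1 in 20. Members share arrays, so the groups are not independent, and only members were examined. The explanations of these values were not tested.

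Of these, 8 are brains. Gabra6 was 3.64 in WT female 1265 against 10.56 to 11.28 in the other WT females, and Grin2c was 6.00 in the same brain against 7.17 to 7.19. Grin2c was also high in KO female 985 (7.13 against 6.72 to 6.77) and in KO male 952 (6.90 against 6.54 to 6.57). Grin2b was 7.27 in WT male 903 against 7.90 to 7.95, and Grik2 was 4.43 in WT male 902 against 5.51 to 5.71. Gria3 was 8.98 in KO female 781 against 9.48 to 9.57. Gabrg3, below the median of all brain arrays, was 3.36 in KO female 982 against 3.24 to 3.26.

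The other 7 lie outside the brain. In heart Gabra3 was 4.10 in KO male 964 against 4.70 in each of the other 3, Gabbr1 was 4.23 in WT male 901 against 4.49 to 4.54, and Grik5 was 4.92 in KO male 952 against 4.59 to 4.63. In kidney Gabbr1 was 5.45 in WT male 902 against 4.60 to 4.69, and Gria3 was 4.82 in KO male 964 against 4.26 to 4.35. In lung Gabbr1 was 6.76 in KO male 1870 against 5.32 to 5.41 and 5.20 in KO female 994 against 6.40 to 6.52.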

How the results depend on the processing

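For KO against WT, 0 members were called in each of the 5 tissues under every alternative run, among them the fit without KO male 952, while counts over all genes ran over 0 to 14 in brain, 0 to 5 in heart, 0 to 1 in kidney, 0 to 21 in liver and 0 to 5 in lung. The highest count in brain (14), heart (5), kidney (1) and liver (21) came with the animal number as a replicate block over all 80 arrays. This replicate block changed 1 member's call, that of Grin2a in kidney minus the mean of the other 3 organs (-0.20, limma adjusted p = 0.043 with the block), and no count of members given in the text. The adjusted p of Gabra2 in brain ran from 0.0933 to 0.995 and its difference from 0.25 to 0.71. Leaving out WT female 1265 moved Gabra6 from 0.75 to -0.15, and leaving out WT female 936 to 1.12. Where a setting moved a value, the cause was not tested, unless the setting removes samples or raises the bar.

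Members lower in brain than in liver, 2 at the main settings, were 1 in WT arrays alone, KO arrays alone, with quantile normalisation renewed, the mean of probe sets or all probe sets, and 0 with a least difference of 1 log2 unit. Those lower than in heart, 1 at the main settings, were 0 in KO arrays alone, 0 with that least difference and 2 with median centring. Members higher in 1 organ than in the other 3 were 0 for heart and 1 for kidney in WT arrays alone (1 and 6 at the main settings), 0, 0, 0 and 3 for heart, kidney, liver and lung with the least difference, and 8 for liver with renewed quantiles (18 at the main settings). Leaving out 1 array gave 0 to 1 members lower in brain than in heart (0 without WT male heart 903), 1 to 2 lower than in liver (1 without any 1 of 19 arrays), and 1 to 3 higher in heart (3 without WT male heart 902). Shares of all genes under these settings are not given here. Signs turned with renewed quantiles for Gabrg3 in brain minus liver (0.0244), Grik5 in liver (0.20) and in lung (-0.065), and Gabrd in lung (3e-04), and with the mean of probe sets for Gabrg3 in brain minus liver (0.0943) and minus heart (0.17).

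With the 95th percentile of olfactory receptor genes as the dividing level, 7 members were above it in kidney and 8 in lung, against 4 and 5. Correlated members were 3 for cerebellum without the 2 farthest brains and 3 in the 12 brains with numbers under 1000 (7 at the main settings). For striatum they were 0, 1 and, with deviations from the mean of genotype and sex, 6 (3 at the main settings), and for cortex 1 without the farthest brains and 8 with deviations (3 at the main settings). Between the sexes, median centring gave 8 members in kidney (1 at the main settings) and 1 in liver (0 at the main settings), as did an intensity trend with a robust prior (1) and the animal number's range as a block (1) in liver. Leaving out 1 array gave 0 to 1 members in heart, 1 to 2 in kidney (2 without WT female 936, KO male 962 or WT male 1262) and 0 to 1 in liver (1 without KO male 1259 or WT male 1262). Gabra3 in kidney moved from -0.72 to -0.39 with the mean of its probe sets. In heart the 1 was Gabra3 without KO female 982 or WT male 1262 (lowest limma adjusted p 0.0419). Signal limits low members: most members lie below the array median outside the brain.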
